A study of Astyanax mexicanus with 6 samples.

Results

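Base excision repair was followed through 10 of its genes in fibroblast lines of the Mexican tetra, *Astyanax mexicanus*. The genes were taken by name from the expression tables, ignoring case: the DNA glycosylases *ogg1*, *neil1*, *neil3* and *mpg*, the endonucleases *apex1* and *apex2*, the gap-filling polymerase *polb*, the ligase *lig3*, and *parp1* and *parp2*. Each name matched 1 gene, so that 10 of 27420 listed genes were examined, and each of the 10 had enough reads to be tested. PEF is a line of embryonic fibroblasts from the Pachón cave population and SEF its counterpart from surface fish, with 3 bulk RNA libraries each. Both lines carry the genotype label WT, received no treatment and were sequenced at similar passage numbers. Per the methods, several embryos were dissociated together and their cells passaged. The paper's results section adds that single clones were isolated and propagated, a step its methods do not describe. A difference between populations therefore cannot be told apart from a difference between individual lines or clones. The labels do not say whether the replicates of a line came from separate cultures, so p-values measure the spread between these libraries, which may be technical.

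Base excision repair removes small base lesions, such as oxidised, alkylated or deaminated bases, that arise continually in living cells. A glycosylase cuts the damaged base from its sugar, an AP endonuclease nicks the backbone at the empty site, DNA polymerase beta fills the gap and a ligase seals it. PARP enzymes bind the strand break and build poly(ADP-ribose) chains that recruit repair factors. When the end cannot be processed simply, a longer patch is made with replication proteins.

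Reads on genes numbered 36790663 to 42506026 in PEF libraries and 33381563 to 39156850 in SEF libraries. Of 16670 genes tested, 63.5% differed between the lines at an adjusted p under 0.05, with 30.4% higher and 33.1% lower in PEF, so a call by itself was common in this comparison. The label fibroblast was checked against marker lists. Of 17 fibroblast markers, 16 were matched, and 5 were higher, 6 lower and 5 not called; the list summed to 10021 to 16796 TPM in PEF, against 10059 to 13895 TPM in SEF, TPM being a length-corrected level on a scale with the same total in each library. The most abundant were *col1a2* (means of 4264 TPM in PEF, against 4670 TPM in SEF), *col1a1a* (3702 and 2010 TPM) and *col1a1b* (2326 and 1095 TPM). The vimentin gene *vim*, named here after its value was seen, averaged 1.23 TPM in PEF, against 3.32 TPM in SEF. These are RNA levels, whereas the paper stained for vimentin protein and reports stable expression in both lines. It also reports enhanced *col1a1* RNA in the lines relative to other cell types. Epithelial markers, 10 of 11 names matched, summed to 8142 to 9343 TPM in PEF, against 3030 to 4182 TPM in SEF. Most of that sum came from *krt8*, *krt18b* and *krt18a.1*. The directions were mixed: of 7 epithelial genes tested, 4 were higher in PEF, 2 lower and 1 not called. *epcam*, also named after its value was seen, averaged 0.010 TPM in PEF, against 0.017 TPM in SEF. *krt4*, named in the same way, was abundant in both lines, at 778 TPM in PEF, against 915 TPM in SEF, and was not called. Muscle, blood and pigment markers summed to at most 0.76 TPM in any PEF library and 3.66 TPM in any SEF library. Neural markers summed to 5.07 to 5.38 TPM in PEF, against 8.38 to 25.4 TPM in SEF. The SEF sum was mostly *gfap*. Of 3 neural genes tested, 2 were lower in PEF and 1, *snap25a*, was higher, and *elavl3*, *elavl4* and *sox2* stood at 0.02 TPM or less. Endothelial markers summed to 38.8 to 42.7 TPM in PEF, against 98.8 to 141 TPM in SEF. Almost all of that sum came from *kdrl* and *fli1a*, with *cdh5* at 0 TPM. These neural and endothelial genes were named after their values were seen. The part of these marker differences in the results on repair genes was not tested, and in bulk RNA fewer cells of a type cannot be told apart from less RNA per cell.

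Each of the 4 roles held 1 called gene, and every called gene was higher in PEF. Of all tested genes, 30.4% were called higher in PEF and 33.1% lower. Against the 63.5% of all tested genes that were called, 4 of 10 repair genes passed the test (edgeR quasi-likelihood test with Benjamini-Hochberg adjustment over all genes tested): *polb*, *apex1*, *parp1* and *ogg1*. None of the 10 was called lower, and none was lower at an unadjusted p under 0.05 or by DESeq2. The genes *neil1*, *neil3*, *mpg*, *apex2*, *lig3* and *parp2* were not called. The median log2 fold change, PEF over SEF, was 0.27 over the 10 genes and −0.02 over all genes tested, and the median size of the change without its sign was 0.28 over the 10 genes and 0.77 over all genes. In CPM, read counts scaled by library size and a TMM factor per library, 6 of the 10 genes had no overlap between the lines. In all 6 PEF was higher. Without the TMM factors *lig3* and *parp2*, which are among these 6, overlapped, as given below. Among all tested genes, in the same TMM-scaled CPM, 70.8% did not overlap, 34.2% with PEF higher and 36.7% with PEF lower.

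**Figure D1:**
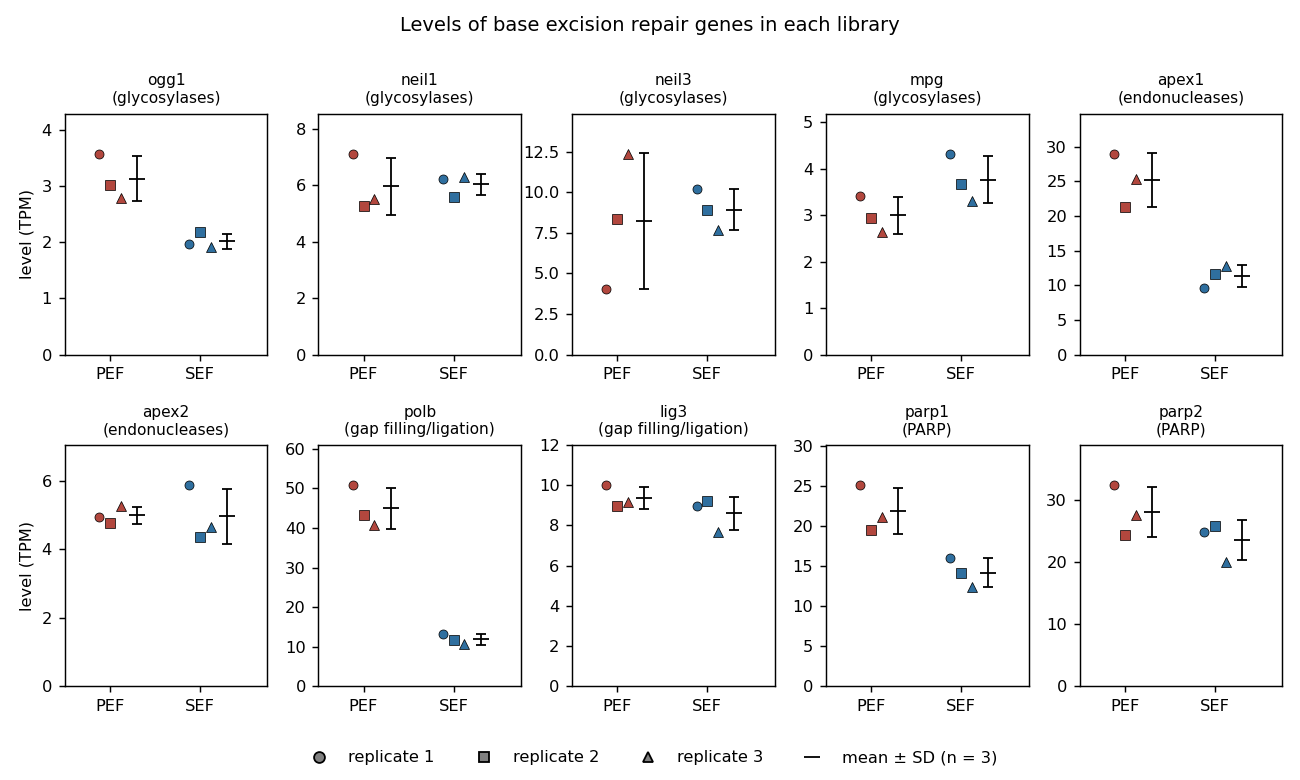
Level of each of the 10 base excision repair genes in TPM, 1 panel per gene with its own axis starting at 0, PEF libraries in red on the left and SEF libraries in blue on the right; symbols mark the replicate and bars the mean ± SD of 3 libraries. The PEF libraries of *ogg1*, *apex1*, *polb* and *parp1* lie above every SEF library, and those of the other 6 genes overlap with SEF or, for *neil3*, spread from 4.01 to 12.37 TPM around the SEF values.

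Among the glycosylases, *ogg1* alone was called. OGG1 removes oxidised guanine from DNA. *ogg1* (ENSAMXG00000033292) was listed at 3.57, 3.02 and 2.79 TPM in the PEF libraries, against 1.96, 2.17 and 1.91 TPM in the SEF libraries. The lowest PEF library was above the highest SEF library. PEF averaged 3.13 ± 0.401 TPM, against 2.01 ± 0.138 TPM in SEF (here and below the SD over n = 3 libraries), and the fitted log2 fold change was 0.65 ± 0.18 (SE; 95% confidence interval 0.23 to 1.07; edgeR adjusted p = 0.0154), or 1.57-fold. The gene was thinly counted, with 112 to 133 reads in PEF libraries and 69 to 93 reads in SEF libraries. Without SEF replicate 1 the log2 fold change was 0.61 and the call was lost (edgeR adjusted p = 0.0511).

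NEIL1 excises oxidised pyrimidines and ring-opened purines. *neil1* (ENSAMXG00000017901) was listed at 7.12, 5.27 and 5.50 TPM in PEF, against 6.21, 5.60 and 6.28 TPM in SEF. The PEF libraries lay on both sides of the SEF values, and the log2 fold change of −0.23 ± 0.13 (SE; interval −0.53 to 0.08) was not called (edgeR adjusted p = 0.160). TPM gave a smaller difference than read counts. The TPM means were 5.96 in PEF and 6.03 in SEF, and limma on log2(TPM + 1) gave −0.02 (limma adjusted p = 0.897).

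MPG, also named AAG, removes alkylated bases. *mpg* (ENSAMXG00000043571) had 3.42, 2.93 and 2.64 TPM in PEF libraries and 4.32, 3.66 and 3.31 TPM in SEF libraries. The lines overlapped, since the highest PEF library exceeded the lowest SEF library. With 75 or 76 reads per PEF library and 78 to 84 reads per SEF library, the log2 fold change of −0.11 ± 0.19 (SE) had an interval of −0.56 to 0.35 (edgeR adjusted p = 0.642). Here TPM gave a larger difference than read counts. The TPM means were 3.00 in PEF and 3.76 in SEF, and limma on log2(TPM + 1) gave −0.25 (limma adjusted p = 0.141).

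NEIL3 acts on oxidised bases in single-stranded DNA and on crosslinks at replication forks, and in mammals it is known from dividing cells. *neil3* (ENSAMXG00000015365) had the largest spread of the 10 genes among PEF libraries. Its PEF libraries stood at 4.01, 8.37 and 12.37 TPM and its SEF libraries at 10.20, 8.88 and 7.67 TPM. PEF thus held both the lowest and the highest library of the 6, and the coefficient of variation was 50.7% in PEF and 14.2% in SEF. For the other 9 genes that coefficient was at most 16.9% in PEF and 16.1% in SEF. The log2 fold change was −0.04 ± 0.37 (SE) with an interval of −0.92 to 0.84 (edgeR adjusted p = 0.933). That interval is the widest of the 10 and reaches well to both sides of 0. Its sign turned on single libraries, being 0.31 without PEF replicate 1 and 0.05 without SEF replicate 1, with no call in either.

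Other genes of dividing cells were unevenly spread over the same libraries. A list of 17 matched proliferation genes, which act in DNA replication, nucleotide synthesis and mitosis, summed to 213, 418 and 677 TPM in PEF libraries 1 to 3 and to 819, 815 and 604 TPM in SEF libraries 1 to 3. PEF replicate 1 was thus the lowest of the 6 libraries and SEF replicate 1 the highest in that sum. PEF replicate 1 was also the lowest in *neil3*. The highest in *neil3* was PEF replicate 3, at 12.37 TPM, which in the proliferation sum stood below SEF replicates 1 and 2. Of these 17 genes 1 was called, *aurka*, lower in PEF and named after its value was seen, and 16 were not called, against 33.1% of all tested genes called lower. Their median log2 fold change was −0.996, and 9 were called lower by DESeq2 and 8 by limma on log2(TPM + 1), with none higher. The edgeR count moved widely with the libraries used, being 5 without PEF replicate 1, 13 without PEF replicate 3, 2 without SEF replicate 3 and 0 without PEF replicate 2 or SEF replicate 2. The part of proliferation in the spread of *neil3* was not tested.

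**Figure D2:**
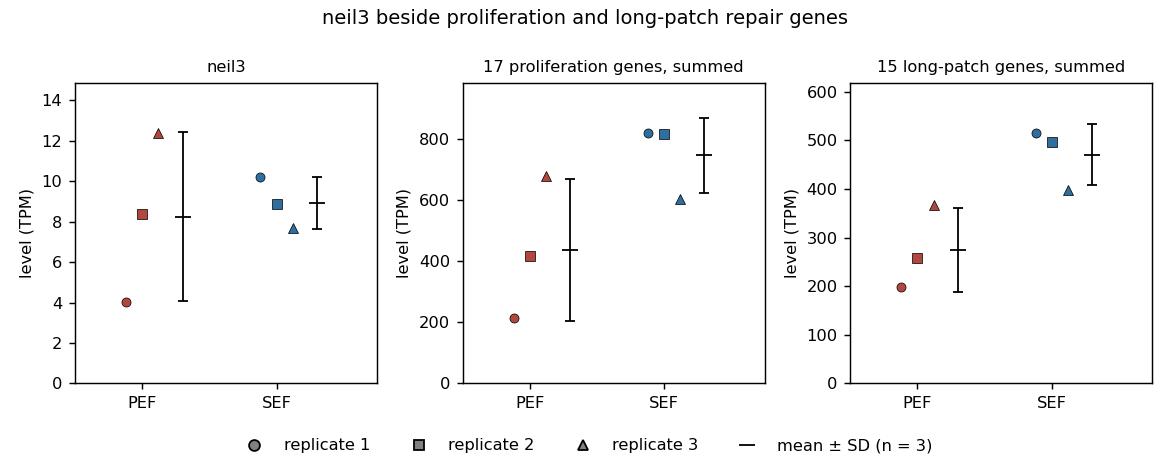
Levels in TPM of *neil3*, of 17 proliferation genes summed and of 15 long-patch repair genes summed, with PEF libraries in red on the left and SEF libraries in blue on the right; symbols mark the replicate and bars the mean ± SD of 3 libraries. PEF replicate 1 is the lowest library in all 3 panels, at 4.01 TPM for *neil3*, 213 TPM for the proliferation genes and 199 TPM for the long-patch genes. The highest library is PEF replicate 3 for *neil3* and SEF replicate 1 for the proliferation and the long-patch genes.

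Summed over the 4 glycosylases, the level was 20.3 ± 2.67 TPM in PEF, against 20.7 ± 1.80 TPM in SEF, a ratio of means of 0.981. Without *neil3* the sum was 12.1 ± 1.76 TPM in PEF, against 11.8 ± 0.593 TPM in SEF. Of the sum over the 4 genes, *ogg1* took 19.7%, 15.4% and 12.0% in the PEF libraries and 8.64%, 10.7% and 9.96% in the SEF libraries, with no overlap. The share of *neil3* was 22.1%, 42.7% and 53.1% in PEF and 45.0%, 43.7% and 40.0% in SEF, and overlapped. As parts of 1 sum, the shares of *ogg1* also depend on the level of *neil3*. These sums and shares are descriptions and carry no test.

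APEX1 is the main AP endonuclease of animal cells and also acts as a redox factor for transcription factors. *apex1* (ENSAMXG00000034699) was listed at 29.01, 21.29 and 25.43 TPM in the PEF libraries, against 9.65, 11.66 and 12.77 TPM in the SEF libraries. Every PEF library was above every SEF library. PEF averaged 25.2 ± 3.86 TPM, against 11.4 ± 1.58 TPM in SEF, and the log2 fold change was 1.21 ± 0.15 (SE; interval 0.86 to 1.57; edgeR adjusted p = 0.000366), or 2.32-fold. Tested against a log2 fold change of 1 rather than 0, it was not called (edgeR adjusted p = 0.0921).

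APEX2, the other member of this enzyme family, has weak AP endonuclease activity and works mainly as an exonuclease. *apex2* (ENSAMXG00000007422) stood at 4.93, 4.78 and 5.26 TPM in PEF, against 5.87, 4.36 and 4.66 TPM in SEF. The 3 PEF libraries lay between the lowest and the highest SEF library. A log2 fold change of 0.08 ± 0.16 (SE), with an interval of −0.30 to 0.45, was not called (edgeR adjusted p = 0.694). Summed, the endonucleases were at 30.2 ± 3.95 TPM in PEF, against 16.3 ± 0.991 TPM in SEF.

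DNA polymerase beta fills the single-base gap and removes the sugar remnant left by the endonuclease. Its gene *polb* (ENSAMXG00000012972) differed most of the 10. It was listed at 50.83, 43.39 and 40.79 TPM in the PEF libraries, against 13.23, 11.60 and 10.62 TPM in the SEF libraries. The groups were far apart relative to their spread, averaging 45.0 ± 5.21 TPM in PEF, against 11.8 ± 1.32 TPM in SEF. The log2 fold change was 2.01 ± 0.13 (SE; interval 1.70 to 2.31; edgeR adjusted p = 1.85e-05), or 4.02-fold. With a log2 fold change above 1 and a call, *polb* and *apex1* were 2 of 10, a kind that made up 17.2% of all tested genes, and no member was called with one below −1 (23.3% of all tested genes). *polb* was the single gene of the 10 also called with a log2 fold change of 1 as the null. That null was rejected for 30.6% of all tested genes. *polb* was called in each of 15 alternative fits. Among all tested genes, 7.76% had a log2 fold change as high or higher.

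LIG3 seals the nick left after gap filling and is also the ligase of mitochondria. *lig3* (ENSAMXG00000007489) stood at 10, 8.98 and 9.14 TPM in PEF, against 8.95, 9.19 and 7.65 TPM in SEF. The lines overlapped in TPM, although in TMM-scaled CPM each PEF library (18.5 to 19.7) was above each SEF library (15.1 to 17.7). Without the TMM factors they overlapped, with 713 of 39420348 reads in PEF replicate 3 and 715 of 39156850 in SEF replicate 2. The log2 fold change of 0.20 ± 0.10 (SE; interval −0.04 to 0.45) was not called (edgeR adjusted p = 0.127). The sum of *polb* and *lig3* was 54.4 ± 5.72 TPM in PEF, against 20.4 ± 1.98 TPM in SEF, the largest ratio of means among the 4 roles at 2.66.

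PARP1 is the main sensor of DNA strand breaks among the poly(ADP-ribose) polymerases. *parp1* (ENSAMXG00000006465) had 25.14, 19.54 and 21.17 TPM in the PEF libraries, against 16.04, 14.18 and 12.38 TPM in the SEF libraries. The libraries did not overlap. In the fit, the log2 fold change was 0.74 ± 0.12 (SE; interval 0.46 to 1.02; edgeR adjusted p = 0.00126), or 1.67-fold. At 1626 to 2992 reads per library it was the most deeply counted of the 10 genes.

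PARP2, a smaller relative, is activated by nicked and gapped DNA and overlaps with PARP1 in function. *parp2* (ENSAMXG00000004311) was listed at 32.36, 24.40 and 27.49 TPM in PEF, against 24.90, 25.81 and 19.94 TPM in SEF. Those TPM values overlapped, while the TMM-scaled CPM values, 34.9, 28.3 and 30.7 in PEF and 26.3, 26.4 and 22.0 in SEF, did not. Without the TMM factors they overlapped, with 1140 of 42506026 reads in PEF replicate 2 and 1098 of 39156850 in SEF replicate 2. The log2 fold change of 0.33 ± 0.12 (SE; interval 0.04 to 0.62) narrowly missed the threshold (edgeR adjusted p = 0.0507), and without PEF replicate 2 it was 0.41 and passed (edgeR adjusted p = 0.0492). Together the PARP genes stood at 50.03 ± 6.88 TPM in PEF, against 37.8 ± 4.73 TPM in SEF, a ratio of means of 1.33.

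**Figure D3:**
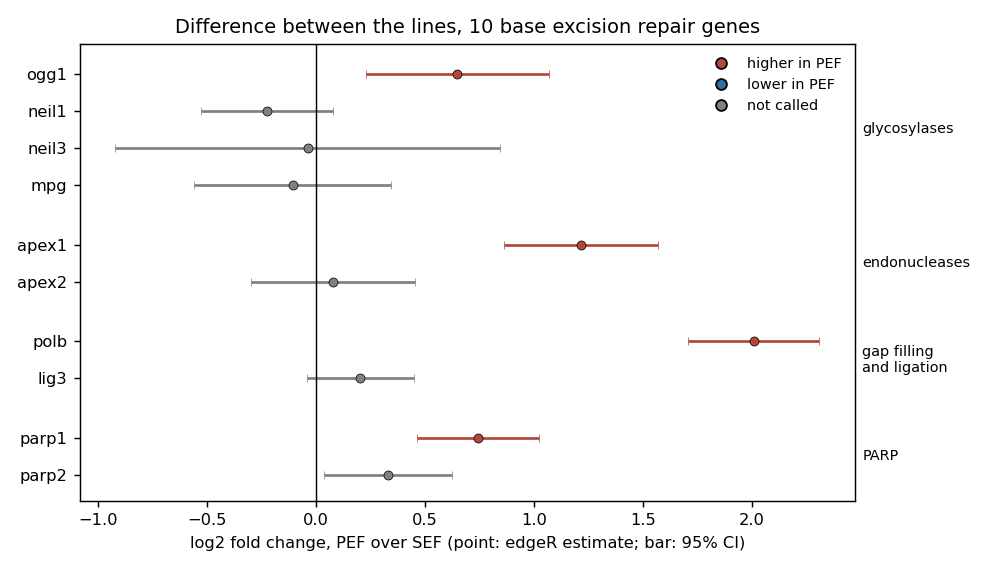
Log2 fold change of the 10 genes by role, PEF over SEF, with points for the edgeR estimate and bars for its 95% confidence interval; red marks genes called higher in PEF and grey those not called. In each role 1 gene is red, from *ogg1* at 0.65 to *polb* at 2.01, and the other genes of the roles lie between −0.23 and 0.33.

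The order of the genes by level differed at the top. In PEF it ran *polb*, *parp2*, *apex1*, *parp1*, *lig3*, *neil3*, *neil1*, *apex2*, *ogg1* and *mpg*, at means of 45.0 to 3.00 TPM. *polb* stood clear of *parp2*, *parp1* of *lig3* and *apex2* of *ogg1*. *neil1* and *apex2* did not overlap but nearly touched, at a lowest 5.27 TPM against a highest 5.26 TPM. The other neighbours in that order overlapped over the 3 libraries. In SEF it ran *parp2*, *parp1*, *polb*, *apex1*, *neil3*, *lig3*, *neil1*, *apex2*, *mpg* and *ogg1*, at means of 23.6 to 2.01 TPM. There *parp2* stood clear of *parp1*, *lig3* of *neil1* and *mpg* of *ogg1*. *apex2* and *mpg* did not overlap but nearly touched, at a lowest 4.36 TPM against a highest 4.32 TPM. The other neighbours in the SEF order overlapped. Relative to all listed genes, *polb* lay at percentile 91.6 of the mean TPM values in PEF and 76.2 in SEF, and *apex1* at 86.4 in PEF and 75.6 in SEF. The lowest percentiles were those of *mpg* in PEF (60.2) and of *ogg1* in SEF (54.3). Silent genes were included, and a gene at 0 TPM lay at percentile 23.7 in PEF and 16 in SEF. The percentiles therefore have a different base in each line.

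Ratios between genes of 1 role within a library do not depend on the scaling between libraries. Log2 ratios were taken on TPM with 0.1 added and compared by a 2-sided exact permutation test. In that test 3 libraries against 3 cannot give a p below 0.1. The ratios printed without log2, as single values or means, are of TPM with nothing added. *lig3* over *polb* was 0.197, 0.207 and 0.224 in PEF and 0.677, 0.792 and 0.720 in SEF, a difference of −1.79 in mean log2 ratio. *apex2* over *apex1* was 0.170, 0.225 and 0.207 in PEF and 0.608, 0.374 and 0.365 in SEF, a difference of −1.13. Both ratios were lower in every PEF library than in any SEF library.

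*parp2* over *parp1* was 1.29, 1.25 and 1.30 in PEF and 1.55, 1.82 and 1.61 in SEF, a smaller difference of −0.37 that also left no overlap. *mpg* and *ogg1* were nearly level in PEF, at a ratio of 0.958, 0.970 and 0.946, whereas *mpg* exceeded *ogg1* in SEF, at 2.20, 1.69 and 1.73. *neil1* over *ogg1* was 1.90 ± 0.138 in PEF and 3.01 ± 0.379 in SEF, again without overlap. The difference in its mean log2 ratio was −0.63 in TPM and −0.87 in CPM. For *mpg* over *ogg1* that difference was −0.92 in TPM and −0.75 in CPM. *neil3* over *ogg1*, at 1.12, 2.77 and 4.43 in PEF and 5.20, 4.09 and 4.02 in SEF, overlapped. The exact p was 0.1, the smallest this design allows, for each of the 5 ratios without overlap (0.12 after Benjamini-Hochberg adjustment over the 6 ratios) and 0.3 for *neil3* over *ogg1* (adjusted 0.3). Each of these 5 ratios set a gene that was not called over a called one, and several shared *ogg1*. They restate the calls of single genes and are not separate observations. The share of other gene pairs without overlap was not computed.

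**Figure D4:**
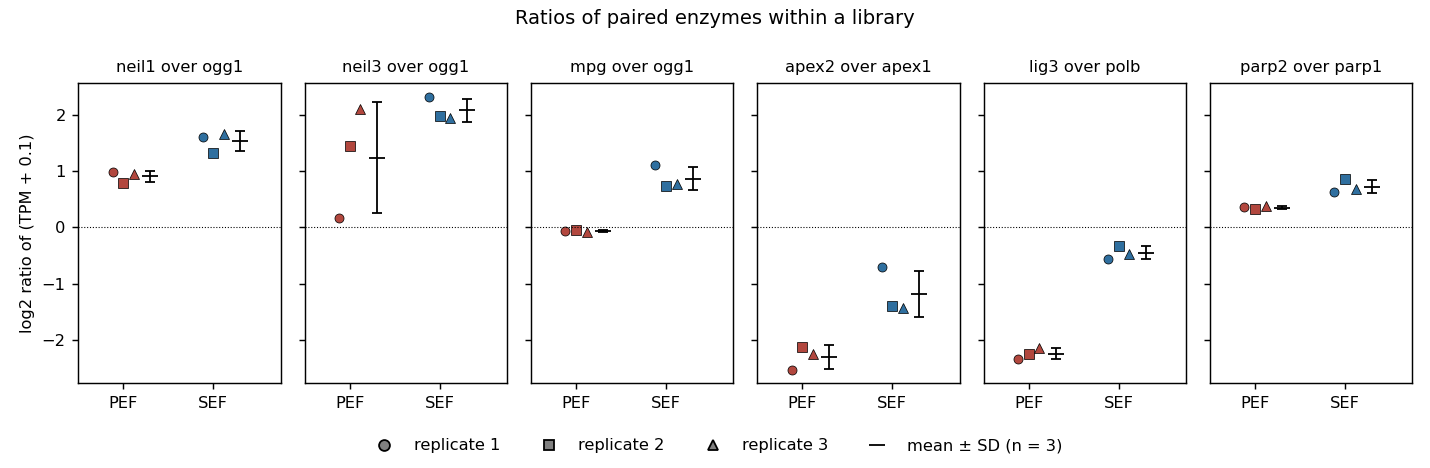
Log2 ratio of 2 genes of 1 role within each library, on TPM with 0.1 added, PEF libraries in red on the left and SEF libraries in blue on the right of each panel; symbols mark the replicate, bars the mean ± SD of 3 libraries and the dotted line equal levels. The PEF libraries lie below all SEF libraries in 5 panels, most widely for *lig3* over *polb*, and overlap with SEF in that of *neil3* over *ogg1*.

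The rest of the pathway was read from a list of 44 gene names, of which 32 were matched and tested. Of these 32, 8 were higher in PEF, 13 lower and 11 not called, against the 30.4% higher and 33.1% lower of all tested genes, and their median log2 fold change was −0.36. The directions were unevenly spread over the roles. *xrcc1*, which encodes the scaffold of the pathway, was not matched by name and is not analysed here.

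Of 5 other glycosylases matched, 3 were higher, 1 lower and 1 not called, against 30.4% higher and 33.1% lower of all tested genes. The 3 higher glycosylases act on thymine or uracil mispaired with guanine. The closely related copies *tdg.1* and *tdg.2*, between which counting could split reads, averaged 23.2 ± 3.01 and 20.6 ± 2.39 TPM in PEF, against 8.79 ± 0.293 and 5.49 ± 0.777 TPM in SEF, with log2 fold changes of 1.45 ± 0.11 and 2.05 ± 0.12 (SE; edgeR adjusted p = 4.38e-05 and 1.53e-05). *mbd4* averaged 4.85 ± 0.546 TPM in PEF, against 2.11 ± 0.137 TPM in SEF, a log2 fold change of 1.50 ± 0.15 (SE; edgeR adjusted p = 0.000148). *nthl1*, whose product excises oxidised pyrimidines as NEIL1 does, was lower, at 3.57 ± 0.403 TPM in PEF, against 7.92 ± 1.48 TPM in SEF, a log2 fold change of −1.01 ± 0.19 (SE; edgeR adjusted p = 0.00279). *unga*, a uracil glycosylase gene, averaged 11.1 ± 2.83 TPM in PEF, against 9.15 ± 0.703 TPM in SEF and was not called (log2 fold change 0.38 ± 0.22, SE; edgeR adjusted p = 0.175).

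The scaffold and end-processing list, here named end-processing genes for short, gave 3 genes, of which the lower one, *poll*, encodes a polymerase. All 3 were called, 2 higher and 1 lower, where 63.5% of all tested genes were called. TDP1 frees topoisomerase and other adducts from DNA ends, and *tdp1* stood at 3.62, 2.76 and 3.83 TPM in PEF, against 1.50, 1.24 and 1.06 TPM in SEF (log2 fold change 1.46 ± 0.21, SE; edgeR adjusted p = 0.000681). *aptx* (log2 fold change 0.65) and the polymerase gene *poll* (−0.42, lower) completed the set and are named after their values were seen.

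In the long-patch list, which holds replication proteins, 9 of 15 genes were lower, 6 were not called and 0 were higher, at a median log2 fold change of −0.68. Of all tested genes 63.5% were called, 33.1% lower and 30.4% higher. All 15 log2 fold changes were below 0, from −1.04 to −0.08, although 14 were without PEF replicate 1 or SEF replicate 2 and 13 without SEF replicate 1. Over all genes tested the median log2 fold change was −0.02. FEN1 trims the displaced flap, and *fen1* was listed at 31.17, 32.85 and 45.60 TPM in PEF, against 61.17, 64.55 and 51.30 TPM in SEF (log2 fold change −0.59 ± 0.19, SE; edgeR adjusted p = 0.0285). LIG1 seals the long patch, and *lig1* stood at 11.61, 19.37 and 24.03 TPM in PEF, against 39.18, 35.74 and 29.72 TPM in SEF (log2 fold change −0.80 ± 0.28, SE; edgeR adjusted p = 0.0391). The sliding clamp gene *pcna*, at 63.85, 85.80 and 137.62 TPM in PEF, against 188.41, 175.59 and 143.99 TPM in SEF, was not called (log2 fold change −0.68 ± 0.29, SE; edgeR adjusted p = 0.0737). In TPM no library of these 3 genes overlapped between the lines, and PEF replicate 1 was the lowest, whereas in CPM *pcna* overlapped (153 in PEF replicate 3, against 148 in SEF replicate 3).

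Among the long-patch genes, log2 fold changes below −1 were those of the polymerase epsilon subunit genes *pole2* (−1.04; edgeR adjusted p = 0.0129) and *pole3* (−1.03; edgeR adjusted p = 0.00107) and the clamp loader gene *rfc4* (−1.01; edgeR adjusted p = 0.00802). The list summed to 199, 257 and 368 TPM in PEF and to 515, 497 and 398 TPM in SEF, beside the proliferation sums given above for the same libraries, and the part of proliferation in the long-patch result was not tested. The count of 9 was 5 without PEF replicate 2, SEF replicate 1 or SEF replicate 2, 6 without PEF replicate 1 and 11 without PEF replicate 3. *fen1* lost its call without PEF replicate 1, PEF replicate 2, SEF replicate 1 or SEF replicate 2 (edgeR adjusted p of 0.0597, 0.0990, 0.0716 and 0.0827) and *lig1* without the last 3 of these (0.0774, 0.104 and 0.0815), whereas *pcna* was called without PEF replicate 3 (0.00644). DESeq2 (adjusted p = 0.0284) and the 3 limma fits on TPM (0.0248 to 0.0407) also called *pcna* lower.

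Of 9 matched genes around the PARP enzymes and the nucleotide pool, 3 were higher, 2 lower and 4 not called. The shares of all tested genes were 30.4% higher and 33.1% lower. *parga*, a gene for the glycohydrolase that removes poly(ADP-ribose), averaged 19.4 ± 0.820 TPM in PEF, against 10.03 ± 0.837 TPM in SEF (log2 fold change 1.03 ± 0.11, SE; edgeR adjusted p = 0.000155). *hmgb1b*, for a chromatin protein that stimulates long-patch repair in mammalian assays, averaged 186 ± 13.9 TPM in PEF, against 89.8 ± 3.90 TPM in SEF (log2 fold change 1.09 ± 0.11, SE; edgeR adjusted p = 0.000145), and counting could split its reads with *hmgb1a*. *parp4*, for the PARP of vault particles, was lower, at 4.39 ± 0.516 TPM in PEF, against 13.5 ± 1.88 TPM in SEF (log2 fold change −1.61 ± 0.16, SE; edgeR adjusted p = 0.000133). *parp3* (0.75, higher) and *hpf1* (−0.70, lower), whose product directs PARP1 and PARP2 to serine in mammals, are named after their values were seen.

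**Figure D5:**
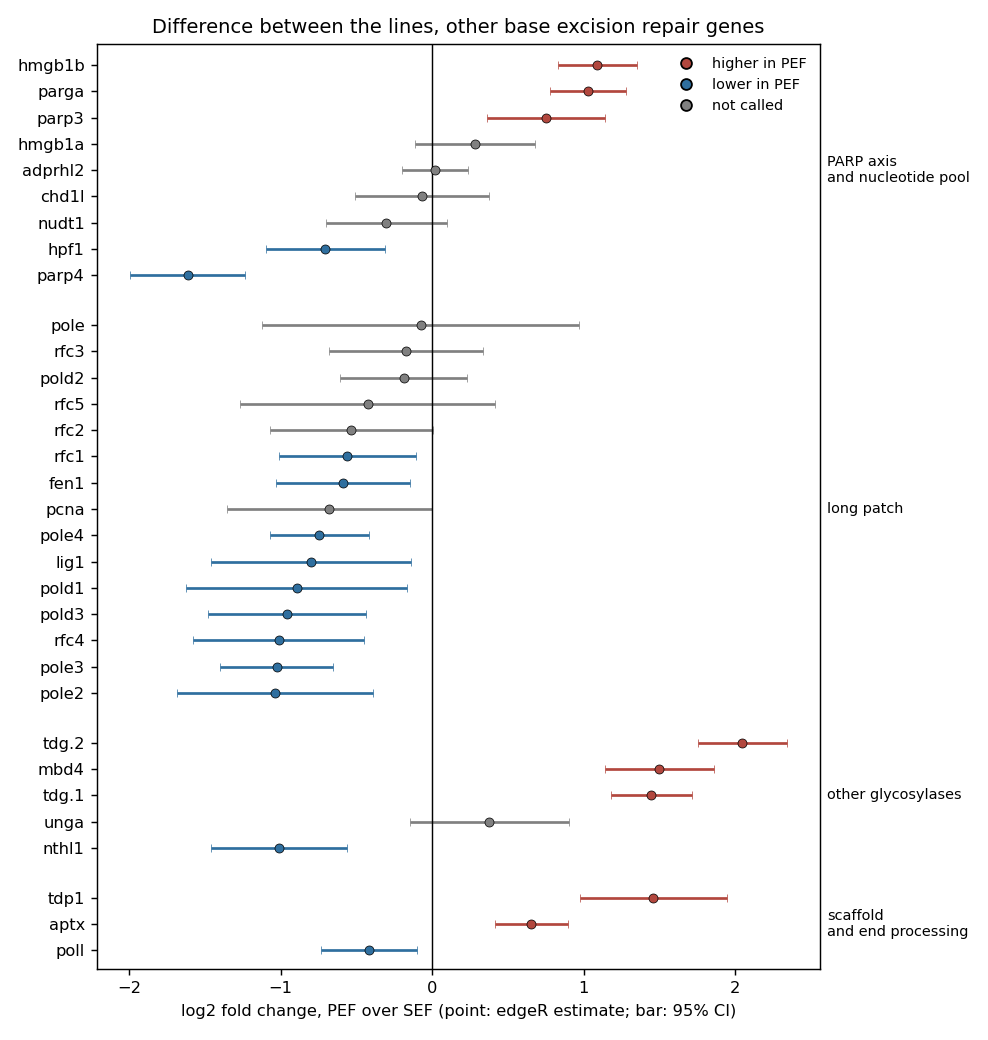
Log2 fold change, PEF over SEF, of the 32 other base excision repair genes in 4 roles, ordered by value within each role, with points for the edgeR estimate and bars for its 95% confidence interval; red marks genes called higher in PEF, blue those called lower and grey those not called. All 15 long-patch points lie below 0, from −1.04 to −0.08, whereas the other glycosylases and end-processing genes run from −1.01 to 2.05.

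Genes beside the 10 were read from the RefSeq gene order of the assembly AstMex3_surface, in which 11105 tested genes were placed by symbol. Among the 5 tested genes on each side of *polb*, 6 were higher, 3 lower and 1 not called, with a median log2 fold change of 0.51 and a highest value of 1.54, below that of *polb* itself. The neighbours of *apex1* had a median of −0.23 with 1 of 10 higher, those of *parp1* a median of −0.02 with 3 higher and those of *ogg1* a median of 0.06 with 3 higher. *parp2*, which was not called, had neighbours at a median of 0.53 with 6 of 10 higher. With up to 10 genes on each side these medians were 0.36 for *polb*, −0.11 for *apex1*, 0.19 for *parp1*, 0.14 for *ogg1* and 0.061 for *parp2*. *polb*, *ogg1* and *apex2* lay on the same chromosome, where 491 placed genes had a median log2 fold change of 0.34 and 43.4% were called higher. The chromosome of *neil3*, which was not called, had a similar share, 43.7% of 490 placed genes, at a median of 0.21. On the chromosomes of the other members the share was 21.4% to 28.3%. Of all tested genes, placed or not, 30.4% were called higher, and the median over all placed genes was 0.0042.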

How the data were processed

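RNA of 3 PEF and 3 SEF libraries (TruSeq Stranded mRNA kit) was sequenced on an Illumina NextSeq instrument. The submitters' processing notes name STAR 2.7.3a and RSEM. The genome build, annotation and strand setting for these libraries are not given in the sources used here, so overlapping and antisense genes are uncertain. The authors deposited read counts per gene, whole numbers that were not normalised, and TPM values, scaled to a common total per library. Reads not assigned to a single gene made up 38.8% to 41.1% of a library and were left out. They were reads outside any gene, mapped to several places, unmapped or ambiguous between genes. Libraries were grouped by the cell line in their labels.

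Counts were tested in R 4.3.3 with edgeR 4.0.16 (TMM, filterByExpr, quasi-likelihood test, Benjamini-Hochberg adjustment over 16670 genes, adjusted p under 0.05). Standard errors were derived from the F statistic. The fit was tested on simulated data in which far fewer genes differed than were called here, so that test does not cover the present setting. TPM served for levels and for within-library ratios (0.1 added for the log2 ratios). Named genes were the 10 members, *unga*, *fen1*, *lig1*, *pcna* and other partners called with a log2 fold change beyond 1. Markers named were the 3 most abundant fibroblast and epithelial genes, and genes outside these rules are marked as such. Members, lists and rules were chosen with earlier results of these data known. Of the partner list, 1 gene is not reported here. Alternatives used DESeq2 1.42.0, limma 3.58.1 on log2(TPM + 0.1 or 1), other filters and scaling, a replicate block, a log2 fold change of 1 as the null and leaving out each library. Gene order came from RefSeq by symbol, with no coordinates used because the builds may differ.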

Additional observations from a re-analysis of the deposited data

How the results depend on the processing

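Over 15 alternative fits *polb* was called in 15, *apex1* and *parp1* in 14, *ogg1* in 13 and *parp2* in 1, and no called gene of the 10 changed sign. Against a log2 fold change of 1, 5103 genes (30.6% of those tested) were called in all. Among them were 1 of the 10 members, 5 of the 32 partners, 0 long-patch genes, 4 of the other glycosylases and end-processing genes and 0 proliferation genes. Signs turned, without any call, for *neil3* (0.31 without PEF replicate 1 and 0.05 without SEF replicate 1; without single libraries the range was −0.41 to 0.31) and *apex2* (−0.0019 without SEF replicate 2; range −0.0019 to 0.17). Leaving out 1 library at a time gave 9289 to 10968 calls over all genes, 3 to 5 members, 16 to 23 partners, 5 to 11 long-patch genes, 6 to 7 other glycosylases and end-processing genes and 0 to 13 proliferation genes. The count of proliferation genes was least stable, at 9 with DESeq2, 4 with upper-quartile scaling, 4 with no filter on low counts, 2 with at least 10 reads in every library, 8 and 7 with limma on log2(TPM + 1) and log2(TPM + 0.1), and 3 with limma and no filter; the cause was not tested. The counts of long-patch genes and of the other glycosylases and end-processing genes were added as results after the data were seen. Same-numbered libraries of the lines did not deviate together (correlations of −0.041, 0.073 and −0.135), so a replicate block was an alternative only: it gave 9735 calls over all genes, 4 members (*ogg1* at an edgeR adjusted p of 0.0464), 16 partners and 5 long-patch genes, and the calls of *fen1* (0.0513) and *lig1* (0.0637) were lost. With up to 10 in place of 5 neighbours on each side, the median log2 fold change was −0.14 for *neil1*, 1.15 for *neil3*, −0.11 for *apex1*, 0.013 for *apex2*, 0.36 for *polb*, 0.19 for *parp1* and 0.061 for *parp2*. No within-library ratio changed direction under another pseudocount, in CPM or without any 1 library. Depth limits *mpg* and *ogg1* most, at 69 to 133 reads per library.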
